A study of Mus musculus with 18 samples.

Results

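The miR-322 to miR-503 cluster is a group of microRNA (miRNA) hairpins on the mouse X chromosome, described here through 10 mature miRNAs that were chosen by name: mmu-miR-322-5p, mmu-miR-322-3p, mmu-miR-503-5p, mmu-miR-503-3p, mmu-miR-351-5p, mmu-miR-351-3p, mmu-miR-542-3p, mmu-miR-542-5p, mmu-miR-450a-5p and mmu-miR-450b-5p, written without the species prefix from here on. All 10 were listed among the 1204 miRNAs of the miR-17~92 MEF table and the 1265 of the miR-290~295 MEF table, and 9 were listed among the 756 of the B-cell table, where miR-542-5p had no row. The study sequenced small RNA from 18 mouse libraries in 8 groups. Mouse embryonic fibroblasts (MEF) carried the oncogenic miR-17~92 cluster at 3 levels, with 3 libraries each: fl/fl, where it is flanked by loxP sites, d/d, where it has been removed, and OV, where it is overexpressed. A second MEF set was d/d for miR-17~92 in both groups and received either an empty plasmid (d/d + Empty) or overexpressed miR-290~295, the miRNA cluster typical of mouse embryonic stem cells (d/d + miR-290~295), again with 3 libraries each. B cells from spleen were sequenced once each as d/d, fl/fl and OV. The strain label of every sample is Eu-myc, a mouse that carries a Myc transgene driven by an immunoglobulin enhancer in B cells, and the cells are described as isogenic. The agent of deletion, the vectors, the number of clones or animals and the age of the mice are not stated in these sources. No label says that the 3 libraries of a group came from separate cultures, so p-values measure the spread between these libraries, which may be technical.

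A miRNA hairpin is cut by Drosha and Dicer into a 5p and a 3p strand, of which usually 1 is kept in Argonaute. Bases 2 to 8 of the kept strand, the seed, pair with target messenger RNAs. miR-322 and miR-503 belong to the extended miR-15/16 family, which is known for lowering cyclins and other proteins that drive the G1 phase. The cluster is known for its high expression in embryonic tissue and in differentiating muscle. miR-351 carries the seed of the miR-125 family, and miR-542-3p is known for targeting Birc5, an inhibitor of cell death.

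On GRCm38.p6 the 7 hairpins lie on the minus strand of chromosome X between 53047997 and 53054349, a span of 6353 bases. In the direction of transcription Mir322 (53054255 to 53054349) comes first, and Mir503 (53053984 to 53054054) starts 295 bases and Mir351 (53053255 to 53053353) 996 bases after it. These 3 hairpins lie inside C430049B03Rik, a long noncoding RNA gene in RefSeq (53053112 to 53057190). A gap of 3767 bases follows, then Mir542 (53049403 to 53049487), Mir450-2, Mir450-1 and Mir450b, none of which lies inside that gene. The first 3 are called proximal and the last 4 distal below. Mir450-1 and Mir450-2 give the same miR-450a-5p, so its reads cannot be divided between them.

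The mature sequences are shown because the seeds tie the members to families outside the cluster, whose values are given further on. They are RefSeq entries on GRCm38.p6, written 5′ to 3′ with the seed in capitals. All 10 members matched the sequence table.
miR-322-5p: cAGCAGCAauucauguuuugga
miR-503-5p: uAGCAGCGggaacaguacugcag
miR-16-5p, outside the cluster: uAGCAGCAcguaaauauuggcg
miR-351-5p: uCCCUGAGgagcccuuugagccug
miR-125b-5p, outside the cluster: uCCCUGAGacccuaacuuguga
miR-450a-5p: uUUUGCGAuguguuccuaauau
miR-450b-5p: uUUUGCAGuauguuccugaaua
miR-542-3p: uGUGACAGauugauaacugaaa
miR-322-3p: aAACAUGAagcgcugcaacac
miR-503-3p: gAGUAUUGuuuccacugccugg
miR-351-3p: gGUCAAGAggcgccugggaac
miR-542-5p: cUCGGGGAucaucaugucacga
The seed of miR-322-5p is shared with, among others, miR-15a-5p, miR-15b-5p, miR-16-5p, miR-195a-5p and miR-497a-5p, whereas miR-503-5p differs from miR-322-5p within the seed at the last base (A8G, counted from the 5′ end, miR-322-5p first). No other mature name among the 1679 in the table has the seed of miR-503-5p. miR-351-5p shares its seed, among others, with miR-125a-5p and miR-125b-5p. miR-450a-5p and miR-450b-5p differ in the last 2 seed bases (G7A and A8G, miR-450a-5p first). The seed of miR-542-5p occurs in 1 other entry, miR-6966-5p, and those of miR-322-3p, miR-503-3p, miR-351-3p, miR-542-3p, miR-450a-5p and miR-450b-5p in none.

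The hairpins of the 2 members with the largest differences are given next, with both mature arms in capitals, since the arms were counted separately and their balance is one of the measurements.
Mir322, X, 53054255 to 53054349: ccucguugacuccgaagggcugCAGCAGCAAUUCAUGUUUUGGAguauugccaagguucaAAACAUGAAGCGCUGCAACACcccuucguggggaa
Mir503, X, 53053984 to 53054054: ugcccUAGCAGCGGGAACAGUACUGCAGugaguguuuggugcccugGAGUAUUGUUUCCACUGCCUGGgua

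Read totals over the listed miRNAs were 17191892 to 24920911 in the miR-17~92 MEF libraries, 43164128 to 58911475 in the miR-290~295 MEF libraries and 10203586 to 10612256 in the B cells. Values are the authors' normalized counts, that is reads divided by 1 factor per library, and they are comparable within a set but not across the 3 sets. The 4 miRNAs used to check miR-17~92 averaged a sum of 1579 normalized counts in the d/d MEF, 78399 in the fl/fl MEF and 418874 in the OV MEF, and summed to 4935924, 1249085 and 31742 in the OV, fl/fl and d/d B cells. The 5 that check miR-290~295 averaged 1762 in d/d + Empty and 806307 in d/d + miR-290~295. In this set the 4 that check miR-17~92 summed to 647 to 965 in d/d + Empty and to 129 to 166 in d/d + miR-290~295. The cause of that difference was not tested. The blood marker miR-142a-3p was between 60603 and 68415 in the B cells and at most 13.3 in any MEF library, whereas the fibroblast marker miR-199a-3p was at least 86023 in every MEF library and 341 to 1496 in the B cells. Other blood markers were abundant in MEF too, with means of 8187 for miR-155-5p and 5200 for miR-181a-5p in fl/fl. The 6 blood markers summed to 172278 to 184778 in the B cells. The 5 listed in MEF summed to 7852 to 14193 in the miR-17~92 set and 23435 to 32034 in the miR-290~295 set.

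In MEF the cluster was dominated by 2 strands. miR-351-5p gave 79.0% ± 2.8 (SD, n = 3) of the cluster's reads in fl/fl, 78.0% ± 1.3 in d/d and 78.9% ± 1.7 in OV, and miR-322-3p gave 15.6% ± 2.4, 16.7% ± 0.88 and 15.5% ± 1.4. miR-322-5p, the strand that carries the miR-15/16 seed, gave only 0.094% ± 0.0062 of them in fl/fl. In B cells the reads were spread more evenly, with 1 library per group: miR-351-5p gave 29.5% to 37.5%, miR-450b-5p 13.6% to 16.7%, miR-322-3p 12.1% to 15.8%, miR-503-5p 10.8% to 12.4% and miR-450a-5p 10.4% to 12.1%. Library preparation ligates some small RNAs better than others, so these shares compare read numbers, not molecules.

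The cluster was much less abundant in B cells than in MEF. Its reads per 1000000 listed reads (RPM) were, from low to high, 285 in fl/fl B cells, 392 in d/d B cells, 459 in OV B cells, 3886 ± 290 (SD, n = 3) in d/d + miR-290~295 MEF, 4169 ± 252 in fl/fl MEF, 5212 ± 559 in d/d MEF, 5327 ± 695 in d/d + Empty MEF and 5680 ± 321 in OV MEF. The 3 B-cell libraries lay below all 15 MEF libraries, of which the lowest was at 3587, although the share of reads is set here across tables that the authors filtered separately. Among the MEF groups the neighbours in this order overlapped, except fl/fl (3891 to 4382) and d/d (4873 to 5858). In bulk samples fewer cells that make the cluster and less of it per cell cannot be told apart.

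**Figure D1:**
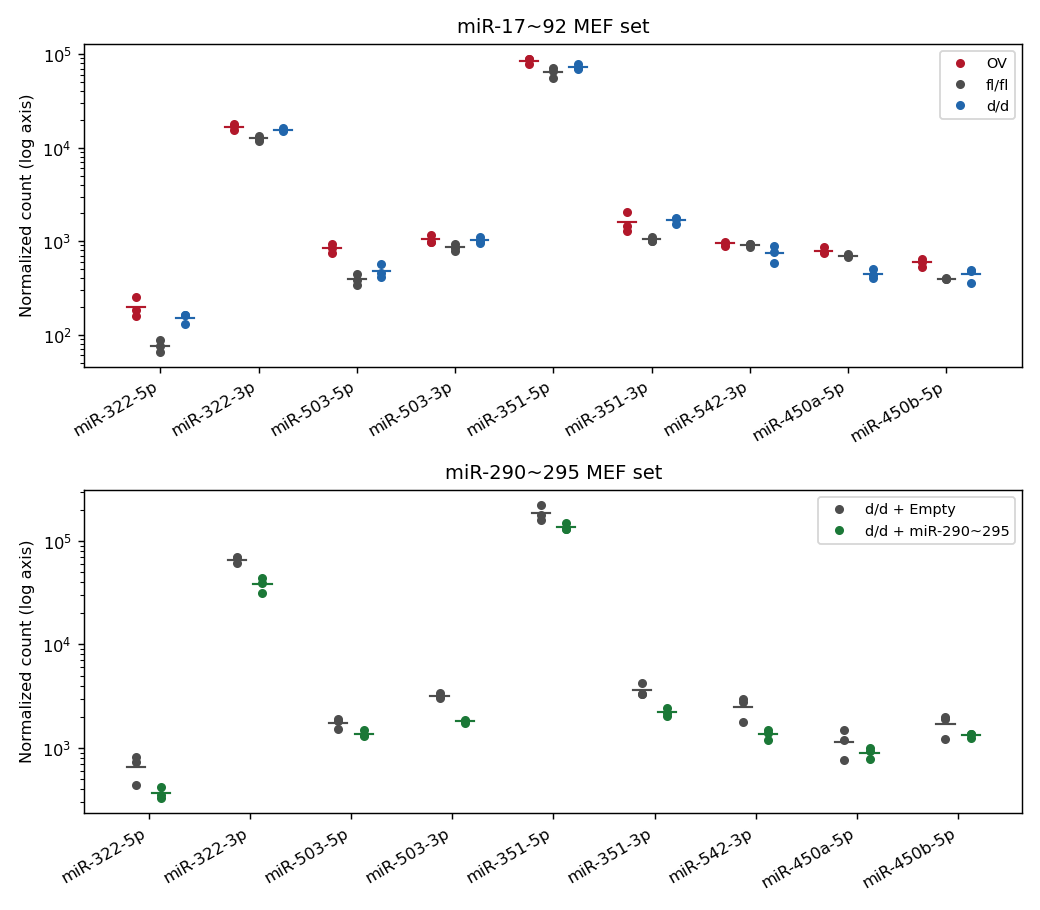
Normalized counts of the 9 members with a mean of at least 10, in hairpin order, on a log axis, in the miR-17~92 MEF set (top) and the miR-290~295 MEF set (bottom); each point is 1 library and each short line the mean of 3. miR-351-5p and miR-322-3p stand highest in both sets, and miR-322-5p stands lowest.

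With miR-17~92 overexpressed, the cluster was higher than in fl/fl MEF, most of all its 2 strands with seeds of the miR-15/16 type. The question is how this cluster differed between OV and fl/fl fibroblasts, which also differed in some fibroblast markers given below. miR-322-5p rose by 1.35 on the log2 scale and miR-503-5p by 1.10, while the much more abundant miR-351-5p and miR-322-3p each rose by 0.41. Of the 9 members tested, 6 passed the threshold (adjusted p of 0.05, limma) and all 6 were higher, whereas 15.6% of the 662 miRNAs tested were called higher and 31.3% were called in either direction. The median difference was 0.41 over the 9 members and -0.07 over all miRNAs tested. In 8 of 9 members every OV library lay above every fl/fl library, which held for 24.5% of all miRNAs.

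miR-322-5p, the miR-15/16-type strand of the first hairpin, had normalized counts of 256, 158 and 186 in the OV libraries OV1, OV2 and OV4 and 65.5, 88.2 and 76.1 in the fl/fl libraries FL3, FL4 and FL5. The 2 groups did not overlap, and the lowest OV library was well above the highest fl/fl library. The limma difference was 1.35 ± 0.21 (log2, SE) with an adjusted p of 0.0020, a 2.55-fold higher level on that scale. Counts of miR-503-5p, whose seed differs from it by the base named above, were 854, 740 and 927 in OV and 449, 342 and 386 in fl/fl. Again no libraries overlapped, and the difference was 1.10 ± 0.17 with an adjusted p of 0.0018 (limma). These 2 calls held under every alternative tried, with adjusted p of at most 0.0105 for each.

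miR-351-5p, the miR-125-type strand that makes up most of the cluster, had 78421, 88398 and 89522 normalized counts in OV and 56192, 71438 and 65976 in fl/fl. The highest fl/fl library lay below the lowest OV library, and the difference was 0.41 ± 0.11 with an adjusted p of 0.0214 (limma). miR-322-3p, the abundant strand opposite miR-322-5p, had 17089, 15381 and 17917 in OV against 13460, 11903 and 12424 in fl/fl, a difference of 0.41 ± 0.11 with an adjusted p of 0.0150 (limma). The 2 remaining rises were 0.59 ± 0.17 for miR-351-3p (adjusted p = 0.0268) and 0.57 ± 0.16 for miR-450b-5p (adjusted p = 0.0208, limma). These 4 smaller rises were not called when library medians were re-centred, where 2 members were called, and without FL5, where 2 were called as well. Without FL3 or without FL4 it was 3 of 9.

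The other 3 tested members did not pass. miR-503-3p, the opposite strand of miR-503-5p, had a difference of 0.29 ± 0.13 (adjusted p = 0.116), miR-450a-5p of 0.18 ± 0.13 (adjusted p = 0.323) and miR-542-3p of 0.06 ± 0.16 (adjusted p = 0.791, limma). miR-542-3p was the only one of the 9 whose OV and fl/fl libraries overlapped (885, 961 and 992 against 935, 937 and 857). miR-542-5p had 0 to 3 reads in each library of this set, below the minimum for testing, and the limit of 3 reads that a count of 0 allows is 3.07 normalized counts in the fl/fl library where it was not seen. The summed fibroblast markers overlapped between the 3 groups, at 1112888 to 1342506 in OV, 1174643 to 1470526 in fl/fl and 1270328 to 1516057 in d/d. A single marker made up most of each sum. Of the 6 markers, 3 were lower in OV than in fl/fl: miR-199a-5p (-0.62 ± 0.11, adjusted p = 0.0030), miR-10b-5p (-0.60 ± 0.15, adjusted p = 0.0139) and miR-199a-3p (-0.53 ± 0.17, adjusted p = 0.0384, limma). Their part in the result was not tested.

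**Figure D2:**
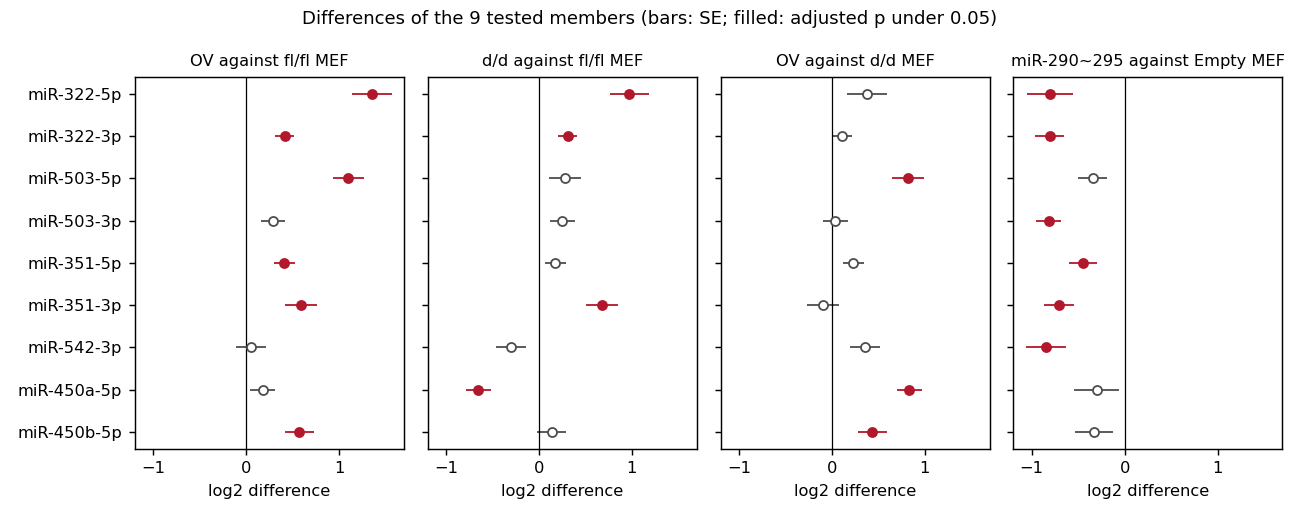
log2 differences (first group minus second) of the 9 tested members, listed from the first to the last hairpin, in the 4 MEF comparisons; bars are standard errors and filled points have an adjusted p under 0.05 (limma). In OV against fl/fl all 9 lie right of 0. In d/d against fl/fl the 6 strands of the proximal hairpins and the distal miR-450b-5p (0.14) lie right of 0. The distal miR-542-3p (-0.31) and miR-450a-5p (-0.65) lie left of 0 there. With miR-290~295 all 9 lie left of 0.

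In d/d against fl/fl MEF members were called in both directions. Of the 6 proximal strands 3 were higher, with miR-322-5p up by 0.97 on the log2 scale, and 3 did not pass, while of the 3 distal strands tested miR-450a-5p was lower by 0.65 and 2 did not pass. None of the higher calls held in the table scaled to spike-ins. Of the 9 members 3 were called higher and 1 lower, beside 30.7% of all miRNAs called higher, 27.6% called lower and 58.3% called in either direction, so the share of members called was not above that of all miRNAs. The median was 0.25 over the members and 0.02 over all miRNAs. In 4 of 9 members every d/d library lay above every fl/fl library and in 1 below, beside 34.9% and 33.1% of all miRNAs. The d/d and OV comparisons use the same fl/fl libraries.

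miR-322-5p had 164, 161 and 129 normalized counts in the d/d libraries DEL1, DEL2 and DEL3 against the fl/fl values above, all d/d above all fl/fl. The difference was 0.97 ± 0.21 with an adjusted p of 0.0027 (limma). miR-351-3p, the rarer strand of miR-351, had 1714, 1526 and 1785 in d/d against 1015, 1113 and 1001 in fl/fl, a difference of 0.68 ± 0.17 with an adjusted p of 0.0065 (limma), which was not called with re-centred medians (0.140). miR-322-3p had 15528, 14912 and 16280 in d/d, also above every fl/fl library, with a difference of 0.31 ± 0.11 and an adjusted p of 0.0284 (limma), a call that was lost without any 1 of DEL1, DEL2, DEL3, FL4 or FL5. With re-centred library medians its difference was 0.023.

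miR-450a-5p, the distal strand made from 2 hairpins, had 499, 403 and 431 in d/d and 720, 679 and 693 in fl/fl. Every d/d library was below every fl/fl library, and the difference was -0.65 ± 0.13 with an adjusted p of 0.0019 (limma), which held under every alternative. miR-450b-3p, the opposite strand of miR-450b-5p and no member, was lower as well (-0.43 ± 0.16, adjusted p = 0.0355, limma). miR-542-3p had 582, 771 and 886 in d/d, 1 library of which lay within the fl/fl range, and its difference of -0.31 ± 0.16 did not pass (adjusted p = 0.130). Also not past the test were miR-503-5p (0.28 ± 0.17), miR-503-3p (0.25 ± 0.13), miR-351-5p (0.18 ± 0.11) and miR-450b-5p (0.14 ± 0.16). Fibroblast markers differed in both directions in this comparison. miR-10b-5p was higher (1.22 ± 0.15, adjusted p = 6.4e-05), and miR-199a-3p (-0.81 ± 0.17, adjusted p = 0.0022) and miR-199a-5p (-0.35 ± 0.11, adjusted p = 0.0224, limma) were lower, while the other 3 did not pass. Their part in the members' values was not tested.

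The direction of several of these values depends on the scaling. In the authors' table scaled to spike-ins the median difference of all miRNAs in d/d against fl/fl was -0.39 in place of 0.02, and the calls of all miRNAs that were higher made up 34.2% in place of 52.6%. There miR-322-3p stood at -0.12, miR-503-5p at -0.15, miR-503-3p at -0.18, miR-351-5p at -0.25 and miR-450b-5p at -0.29, and the calls among members were 0 higher and 2 lower (miR-450a-5p and miR-542-3p), beside 22.1% and 42.6% of the 665 miRNAs tested in that table. miR-322-5p was still at 0.55 but its adjusted p was 0.0542 (limma). The 2 scalings divide the same reads by 1 factor per library. A shift common to all miRNAs therefore cancels when values are measured from the median of all miRNAs. Measured so, miR-322-5p lay at 0.96 without and 0.94 with spike-in scaling, miR-322-3p at 0.29 and 0.27, and miR-450a-5p at -0.67 and -0.69. This likeness follows from the arithmetic and is no check on either scaling.

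Ratios within a library do not depend on any scaling. Per 1000 reads of miR-322-3p, miR-450a-5p had 55.4 ± 1.8 (SD, n = 3) in fl/fl, 47.1 ± 1.6 in OV and 28.5 ± 3.1 in d/d, and the 3 groups did not overlap. miR-542-3p had 72.4 ± 5.5, 56.5 ± 5.5 and 47.9 ± 9.1 in the same order, where OV and d/d overlapped and fl/fl lay above both. miR-503-5p had 31.1 ± 2.3 in fl/fl, 49.96 ± 1.8 in OV and 30.6 ± 3.7 in d/d, so that only OV stood apart. Other members did not separate d/d from fl/fl: miR-450b-5p had 31.6 ± 1.8 in fl/fl and 28.4 ± 5.0 in d/d, miR-351-5p 5162 ± 922 and 4673 ± 325, and miR-503-3p 68.2 ± 8.5 and 65.5 ± 4.6, all with overlap. miR-322-5p (6.13 ± 1.3 and 9.75 ± 1.6) and miR-351-3p (83.2 ± 9.3 and 107 ± 4.4) were higher in d/d without overlap. This ratio was chosen after the values had been seen and is a description without a test.

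**Figure D3:**
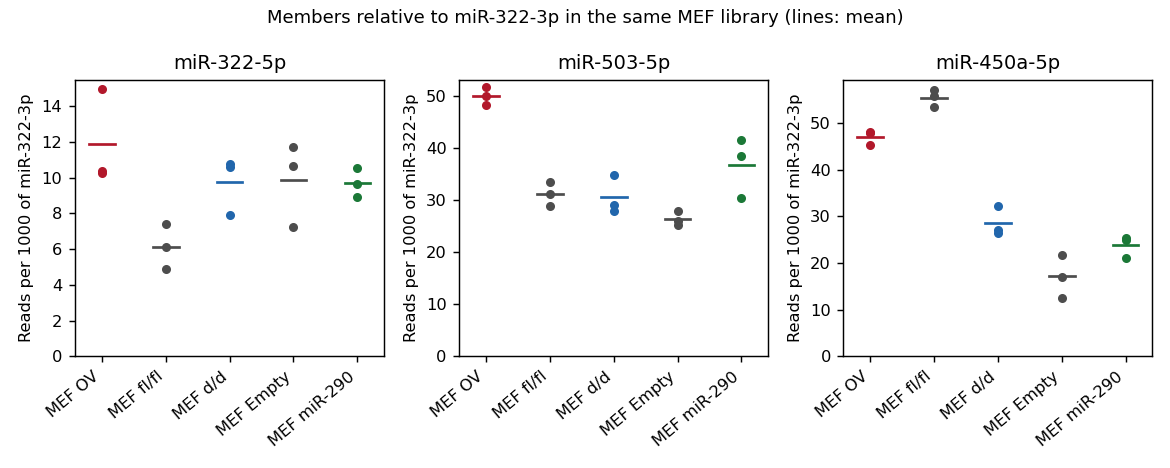
Reads of miR-322-5p, miR-503-5p and miR-450a-5p per 1000 reads of miR-322-3p in the same MEF library, by group; points are libraries, lines are means of 3, and each axis starts at 0. miR-503-5p is highest in OV at 49.96, and miR-450a-5p is lower in d/d (28.5) than in fl/fl (55.4).

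Between OV and d/d MEF, the 2 extremes of miR-17~92, 3 members were called and all 3 were higher in OV, beside 26.7% of all miRNAs called higher and 52.4% called in either direction. miR-450a-5p differed by 0.83 ± 0.13 (adjusted p = 3.5e-04), miR-503-5p by 0.82 ± 0.17 (adjusted p = 0.0019) and miR-450b-5p by 0.44 ± 0.16 (adjusted p = 0.0392, limma), while miR-450b-3p, outside the 10, differed by 0.51 ± 0.16 (adjusted p = 0.0190). The libraries of the 2 groups did not overlap for 4 members, all higher in OV, beside 28.9% of all miRNAs. The call of miR-450b-5p was lost without OV1, OV4 or DEL1. miR-322-5p, at 0.38 ± 0.21, did not pass (adjusted p = 0.162), and its OV and d/d libraries overlapped. In this comparison, too, the scaling matters: with spike-in scaling the median of all miRNAs was 0.60 in place of 0.02, higher calls made up 73.5% of all calls in place of 51.0%, and all 9 members were called higher, beside 50.1% of the 665 miRNAs tested in that table. The OV libraries and the d/d libraries are those of the 2 comparisons above.

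Overexpression of miR-290~295 in d/d MEF went with a lower level of the cluster. Of the 9 members tested 6 fell and none rose, by between 0.44 and 0.85 on the log2 scale, and strands of Mir322, Mir503, Mir351 and Mir542 were among them. Of all 840 miRNAs tested 22.3% were called lower and 38.9% were called in either direction. The median difference was -0.71 over the members and 0.02 over all miRNAs. In 7 of 9 members every miR-290~295 library lay below every Empty library, which held for 26.1% of all miRNAs.

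miR-322-3p had 60690, 69678 and 67978 normalized counts in the Empty libraries E1, E2 and E3 and 31148, 43892 and 39128 in the 3 miR-290~295 libraries. The groups did not overlap, and the difference was -0.81 ± 0.15 with an adjusted p of 0.0031 (limma). miR-503-3p had 3141, 3408 and 3049 against 1725, 1875 and 1841, a difference of -0.82 ± 0.14 with an adjusted p of 0.0018 (limma). miR-351-3p had 4261, 3316 and 3296 against 2184, 2020 and 2409, a difference of -0.71 ± 0.16 with an adjusted p of 0.0075 (limma). These 3 calls, 1 for each proximal hairpin and all of the 3p strand, held under every alternative.

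miR-542-3p, the Birc5-targeting strand, had 1766, 2750 and 2991 in Empty and 1187, 1397 and 1494 with miR-290~295, a difference of -0.85 ± 0.22 with an adjusted p of 0.0130 (limma). miR-322-5p had 440, 815 and 725 against 328, 424 and 348, where E1 lay close to the miR-290~295 libraries, and differed by -0.81 ± 0.25 (adjusted p = 0.0294, limma). miR-351-5p had 222943, 179781 and 158918 against 129946, 129873 and 149831, a difference of -0.44 ± 0.15 with an adjusted p of 0.0432 (limma), the call nearest the threshold. Without E2, and likewise without the first miR-290~295 library, these 3 calls were lost and 3 of 9 members were left.

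miR-503-5p, at 1534, 1811 and 1899 in Empty and 1293, 1331 and 1502 with miR-290~295, was lower in every library but did not pass (-0.34 ± 0.15, adjusted p = 0.108). miR-450b-5p (-0.33 ± 0.20, adjusted p = 0.225) and miR-450a-5p (-0.30 ± 0.25, adjusted p = 0.365, limma) overlapped between the groups. In both, E1 was the lowest Empty library (1220 for miR-450b-5p, 758 for miR-450a-5p), and without it both were called, at -0.55 and -0.57. miR-542-5p had 5, 14 and 9 reads in Empty and 2, 6 and 1 with miR-290~295, below the minimum for testing. With spike-in scaling the median of all miRNAs was -0.46, higher calls made up 14.5% of all calls in place of 42.8%, and all 9 members were called lower, beside 39.1% of the 846 miRNAs tested in that table.

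Fibroblast markers fell with the cluster in this set. Their sum over 6 miRNAs was 2951065 to 4216327 in Empty and 1821215 to 2095948 with miR-290~295, and 5 of the 6 were called lower, among them miR-199a-5p (-0.46 ± 0.13, adjusted p = 0.0187) and miR-214-3p (-0.46 ± 0.13, adjusted p = 0.0195, limma). Their part in the cluster's fall was not tested. The blood marker miR-142a-3p was at 0 to 2.66 in these 6 libraries. The summed blood markers overlapped, at 25754 to 32034 in Empty and 23435 to 28057 with miR-290~295.

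The balance between the 2 strands of a hairpin differed between some groups of libraries, but no difference passed the test given below. miR-503-5p made up 46.4%, 42.9% and 44.2% of all miR-503 reads in OV MEF, 34.5%, 26.9% and 32.9% in fl/fl and 29.2%, 30.2% and 36.1% in d/d. OV lay above both other groups without overlap, at 44.5% ± 1.7 (SD, n = 3) against 31.5% ± 4.0 and 31.8% ± 3.7. With miR-290~295 the share was 43.1% ± 1.7 against 35.3% ± 2.8 in Empty, also without overlap. Over 16 comparisons of arm shares the two-sided exact permutation test could not go below p = 0.1 with 3 against 3 libraries, which all these miR-503 differences reached except d/d against fl/fl (p = 1), and 0.1 became 0.178 after Benjamini-Hochberg adjustment.

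miR-322-5p was a minor strand in every MEF library. Its share of miR-322 reads was 0.61% ± 0.13 in fl/fl, 0.97% ± 0.16 in d/d and 1.17% ± 0.26 in OV (SD, n = 3), with fl/fl below the other two without overlap (exact permutation p = 0.1, the smallest possible, for each). It was 0.98% ± 0.23 in Empty and 0.96% ± 0.080 with miR-290~295, where the groups overlapped. miR-351 was 97.6% to 98.5% 5p in every MEF library. Within that narrow range it was 97.7% ± 0.17 in d/d and 98.4% ± 0.15 in fl/fl, without overlap, while OV overlapped both. It was 98.4% ± 0.061 with miR-290~295 and 98.1% ± 0.11 in Empty, also without overlap (exact permutation p = 0.1 for each of these differences). miR-450b was 63.7% ± 0.19 5p in fl/fl, 71.2% ± 2.8 in OV and 72.1% ± 4.7 in d/d, with fl/fl below both.

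In B cells the balance of miR-322, miR-503 and miR-450b was different. miR-322-5p made up 12.3% of miR-322 reads in OV (95% Wilson interval 10.2 to 14.7, 846 reads), 18.1% in fl/fl (14.8 to 21.9, 448 reads) and 13.0% in d/d (10.6 to 15.8, 624 reads), each above the highest MEF library at 1.48%. miR-503-5p made up 75.1%, 82.1% and 74.1% of miR-503 reads in OV, fl/fl and d/d B cells, above every MEF library, so that the more abundant strand was the other one. For miR-322 and miR-503 the OV B-cell library lay below the fl/fl one, opposite to the order of OV and fl/fl in MEF. miR-450b was 86.9%, 87.8% and 86.2% 5p in OV, fl/fl and d/d B cells, above the highest MEF library at 79.99%. miR-351 was 97.6% to 98.8% 5p, close to its MEF share. Intervals cover counting error only, and with 1 B-cell library per group these differences have no replicate check. The tissue cannot be told apart from the set in which the libraries were made and counted.

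**Figure D4:**
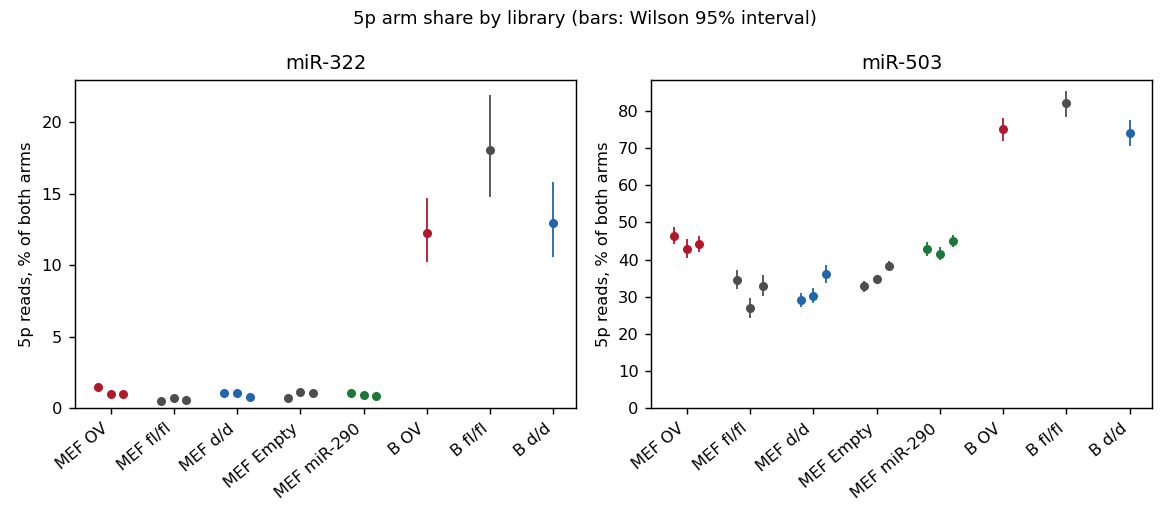
Share of 5p reads among both strands of miR-322 (left) and miR-503 (right) in each of the 18 libraries, by group; bars are 95% Wilson intervals from read counts and both axes start at 0. miR-322-5p is at or below 1.48% in every MEF library and at 12.3% to 18.1% in B cells, and miR-503-5p is between 26.9% and 46.4% in MEF and above 74% in B cells.

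Within B cells every listed member was higher in OV than in fl/fl. The ratios ranged from 1.49 for miR-542-3p to 3.34 for miR-503-3p, 6 of 9 differed by more than 1 on the log2 scale beside 6.3% of the 476 miRNAs considered, and the median was 1.24 over the members and 0.02 over all. There was 1 library per group and hence no test. miR-322-3p had 994 normalized counts (742 reads, exact Poisson 95% interval 924 to 1068) in OV and 346 (367 reads, 311 to 383) in fl/fl. miR-503-5p had 778 (716 to 844) and 354 (320 to 392), miR-450a-5p 761 (700 to 826) and 295 (263 to 330), and miR-351-5p 1851 (1755 to 1952) and 972 (914 to 1033). The summed cluster was 2.20 times as high in OV by normalized counts and 1.61 times as high by RPM. By RPM all 9 members were again higher in OV, at 1.09 to 2.45 times fl/fl, but 3 of 9 were more than 2 times as high in place of 6, beside 3.57% of all miRNAs, and the median ratio was 1.73 over the members and 0.743 over all.

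In d/d B cells 6 of 9 members were above fl/fl by normalized counts, 1 of them by more than 1 on the log2 scale, beside 16.2% of all miRNAs, and the median was 0.32. By RPM all 9 were above fl/fl, although miR-322-5p (7.66 against 7.63) and miR-542-3p (27.6 against 27.4) hardly differed, and 1 was more than 2 times as high, beside 20.2% of all miRNAs. The median ratio by RPM was 1.49 over the members and 1.18 over all. On both scales that 1 member was miR-351-3p, with 39 reads in d/d and 12 in fl/fl. miR-322-5p, with 81 reads in each, had 64.3 normalized counts (51.1 to 79.9) in d/d and 76.4 (60.6 to 94.9) in fl/fl, and the intervals overlapped. miR-503-5p was at 354 in both. Fibroblast markers were higher in this library, with a sum of 9384 against 2470 in fl/fl and 2454 in OV, and miR-214-3p at 25.4 against 5.66 and 4.02. Their part in the d/d values was not tested.

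**Figure D5:**
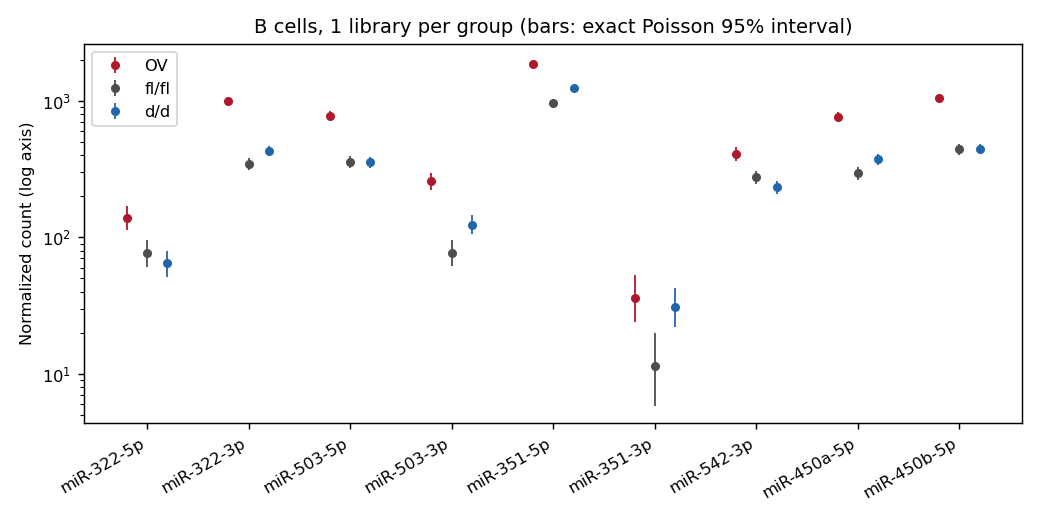
Normalized counts of the 9 listed members in the OV, fl/fl and d/d B-cell libraries, on a log axis, with 1 library per group; bars are exact Poisson 95% intervals, which cover counting error only. By these counts OV is highest for all 9 members, and d/d and fl/fl lie close together for miR-503-5p, with 354 each. For miR-351-3p the intervals of OV (23.8 to 52.6) and d/d (22.0 to 42.3) overlap. By RPM d/d was above OV for miR-351-5p (147 against 135) and miR-351-3p (3.69 against 2.65).

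miRNAs outside the cluster that share its seeds were measured in the same libraries. The table of mature names holds 9 others with the miR-322-5p seed and 4 with the miR-351-5p seed, of which 5 and 2 were listed in the miR-17~92 MEF set and are described. Of these 5, none was called in OV against fl/fl MEF by limma, edgeR or DESeq2, and 1 had an unadjusted p under 0.05. Their median difference there was 0.35, with 3 positive and 2 negative, beside 0.41 for the members and -0.07 for all miRNAs. Among them were miR-195a-5p (0.65 ± 0.29, adjusted p = 0.106) and miR-15b-5p (0.50 ± 0.24, adjusted p = 0.129, limma). The lowest adjusted p of miR-15b-5p over the alternatives was 0.0206 (limma). In d/d, miR-497a-5p was higher (0.68 ± 0.22, adjusted p = 0.0240) and miR-16-5p lower (-0.64 ± 0.24, adjusted p = 0.0370, limma), and with miR-290~295 miR-195a-5p was higher (0.68 ± 0.16, adjusted p = 0.0095), where DESeq2 called 2 of 5 and edgeR 1. In OV against d/d limma called 0, with 1 at an unadjusted p under 0.05, and edgeR and DESeq2 called 1 each. In OV B cells miR-15a-5p, miR-15b-5p and miR-16-5p were at 1.04, 1.03 and 1.19 times their fl/fl level by normalized counts, and the rarer miR-195a-5p and miR-497a-5p at 0.913 (9 and 14 reads) and 0.432 (7 and 23 reads). In d/d B cells the 5 were at 1.14, 1.16, 1.27, 3.07 and 2.42 times it in the same order. The 2 with the miR-351-5p seed, miR-125a-5p and miR-125b-5p, were at 1.69 and 1.30 times fl/fl in OV B cells and at 6.43 and 1.77 times in d/d B cells. In MEF miR-125a-5p was lower in d/d than in fl/fl (-0.64 ± 0.13, adjusted p = 0.0019, limma) and neither was called by limma in the other 3 MEF comparisons. DESeq2 called 1 of the 2 in OV against fl/fl and 1 with miR-290~295, and edgeR called none in those 3 comparisons. At an unadjusted p under 0.05 limma had 1 in each of those 2 comparisons and 0 in OV against d/d.

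Other X-linked miRNAs, a list of 32 of which 24 were tested in the miR-17~92 set, were read in the same comparisons. In OV against fl/fl 4 rose and 5 fell, with miR-676-3p up by 1.43 ± 0.16 and miR-221-5p down at -0.66 ± 0.17, and their median was 0.00 beside -0.07 for all miRNAs. These 9 calls are 37.5% of the list, beside 31.3% of all miRNAs, of which 15.6% were called higher and 15.7% lower. In d/d 1 rose and 16 fell, with miR-224-5p at -1.50 ± 0.10, and the median was -0.63. These calls are 70.8% of the list beside 58.3% of all. By direction, 30.7% of all miRNAs were called higher and 27.6% lower, so the list leaned to lower calls more than all miRNAs did. In OV against d/d 13 of the 24 rose and none fell. They are 54.2% of the list, beside 52.4% of all miRNAs called in either direction and 26.7% called higher. The median of the list was 0.45 there, beside 0.36 for the cluster and 0.02 for all miRNAs. With miR-290~295, 9 of the 27 tested rose and 2 fell, with miR-222-3p up by 1.91 ± 0.31. These calls are 40.7% of the list beside 38.9% of all, of which 16.7% were called higher and 22.3% lower. The median of the list was 0.16, beside -0.71 for the cluster.

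The members varied together only in part. Over the 9 libraries of the miR-17~92 MEF set the 36 pairs of tested members had Pearson correlations of log2 values from -0.29 to 0.91 with a median of 0.60, and over the 6 libraries of the other set from -0.02 to 0.98 with a median of 0.83. All pairs share the libraries' scaling and group differences. Among 367 other miRNAs with a mean of at least 100, those most like miR-322-5p over the 9 libraries were miR-669p-5p and miR-669a-5p (r = 0.95 for both, whose values are identical), miR-23a-5p (0.92), miR-140-5p (0.91) and miR-467e-5p (0.90). Over the 6 libraries of the other set their r with miR-322-5p was 0.83, 0.83, -0.95, 0.95 and 0.77. Those most like miR-351-5p were miR-1306-3p (0.94), miR-148a-5p (0.84), miR-140-3p (0.80), miR-3102-3p (0.79) and miR-3102-5p.2-5p (0.79), with r of 0.01, 0.09, 0.45, -0.50 and -0.32 in the other set.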

How the data were processed

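The authors deposited normalized counts per mature miRNA, with 33 rlog-transformed columns beside them, per the file headers, which were not used. NEBNext libraries of gel-purified small RNA with spike-ins were sequenced, per the labels' protocols, and the submitters' processing notes name DESeq2. The aligner, counter, annotation, build and the filter on listed miRNAs are not stated in these sources. The deposited signal is reads divided by 1 factor per library: 100% of values were whole reads within 0.0001 of a read, and both MEF sets have a second table scaled to spike-ins with the same reads. The table without spike-in scaling was used, because all sets have one.

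Comparisons used limma 3.58.1 (R 4.3.3) on log2(normalized count + 1) with its trend of variance on level, fitted to all miRNAs with a mean of at least 10, with Benjamini-Hochberg adjustment over all of them. The script was tested on simulated counts. OV, fl/fl and d/d MEF shared 1 fit of 9 libraries, and B cells were not tested. Alternatives were the spike-in table, re-centred library medians, pseudocounts of 0.5 and 5, no minimum, a minimum of 100, edgeR 4.0.16 and DESeq2 1.42.0 on the recovered reads, 2-group fits, a replicate block, each library left out and, for B cells, the share of listed reads. The deposited columns tie OV and fl/fl libraries to a group but not to a sample number. No replicate pair agreed within sampling noise. All members are reported, miRNAs with their seeds or beside them where called, and likeness by the 5 highest correlations for miR-322-5p and for miR-351-5p. The members and lists were chosen with earlier results of these data known.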

Additional observations from a re-analysis of the deposited data

Results flagged for a closer look

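For 3 strands the single d/d B-cell library lay on the other side of fl/fl from the 3 d/d MEF libraries, by normalized counts, a difference between cell types that was not tested. miR-322-5p was at -0.24 on the log2 scale in B cells (81 reads in each library) and at 0.97 in MEF, but as reads per 1000000 listed reads it was at 7.66 in d/d and 7.63 in fl/fl B cells, so its direction there depends on the scaling. miR-450a-5p was at 0.33 in B cells (468 reads in d/d, 313 in fl/fl) and at -0.65 in MEF. miR-450b-3p, the strand opposite miR-450b-5p, was at 0.22 in B cells (90 and 65 reads) and at -0.43 in MEF. For miR-322-5p the exact Poisson intervals of the 2 B-cell libraries overlapped.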

How the results depend on the processing

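Members called in OV against fl/fl were 6, and 2 with re-centred library medians, where miR-542-3p stood at -0.074. In d/d against fl/fl they were 4, and 2 with spike-in scaling, where miR-322-3p stood at -0.12, miR-503-5p at -0.15, miR-503-3p at -0.18, miR-351-5p at -0.25 and miR-450b-5p at -0.29. With re-centred medians these last 4 were at -0.0048, -0.032, -0.11 and -0.15. In OV against d/d, 3 were called, 9 with spike-in scaling and 5 with re-centred medians, and miR-351-3p, at -0.09, stood at 0.47 and 0.063. The cause was not tested. With each library left out in turn, 2 to 6 members were called in OV against fl/fl and 3 to 8 in miR-290~295 against Empty. Also with libraries left out, OV against d/d ranged from -0.044 to 0.091 for miR-503-3p and from -0.29 to 0.052 for miR-351-3p. The 5p share difference, in percentage points, ranged from -0.15 to 0.072 for miR-322 with miR-290~295, from -1.87 to 1.93 for miR-503 in d/d against fl/fl and from -3.62 to 0.71 for miR-450b in OV against d/d. In B cells the ratio of the summed members was 2.20 for OV and 1.15 for d/d, and 1.61 and 1.38 by share of listed reads, by which 3 members in place of 6 were more than 2 times as high in OV. The count tests on recovered reads changed no member's call.

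Only the miR-290~295 set carries matching numbers. Same-numbered libraries had correlations of 0.28, 0.01 and -0.26, and differently numbered ones ranged from -0.38 to 0.39. With so few libraries this check cannot tell whether the numbers pair the samples. With a replicate block 5 members were called in place of 6, and 125 miRNAs were higher and 173 lower in place of 140 and 187. Elsewhere no paired analysis was possible. In the miR-17~92 MEF set the numbers in the OV and fl/fl column names are not those of the samples' labels, and B cells have 1 library a group. With 3 libraries a group, the spread between libraries limits what can be called, and miR-542-5p, at 0 to 14 reads, was too shallow to compare.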
